A study of Mus musculus with 8 samples.

Results

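The genes described here are 10 genes of red blood cell development, taken by symbol from a table of 53465 genes. They are the DNA-binding regulators *Gata1*, *Klf1*, *Tal1*, *Nfe2* and *Gfi1b*, the cofactors *Lmo2* and *Zfpm1*, and the cytokine receptor genes *Epor*, *Csf2rb2* and *Csf2rb*. Each of the 10 symbols matched 1 row of the table, and all of them passed the filter on low counts. The samples were heart ventricles of mouse embryos at embryonic day 9.5, sequenced as poly(A) RNA from 200 ng of total RNA with single reads of 60 bases. There were 4 wild-type (WT) samples and 4 samples of the genotype Nrg-1flox;Tie2-Cre, called mutant below, in which the gene of the growth factor neuregulin-1 is deleted by a Cre recombinase under the endothelial driver Tie2. The labels do not give the zygosity of the floxed allele, whether WT embryos carried Cre or floxed alleles, the sex, or how many embryos were in a sample. The Tie2 driver is known to be active in blood cells as well as in endothelium and endocardium, and in which cells *Nrg1* was deleted here was not measured. Nothing in the labels says that samples of a genotype were separate litters, so p-values measure the spread between these samples.

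The heart tube at this stage is perfused by primitive red blood cells, which arise in the yolk sac, still carry a nucleus and transcribe embryonic globin genes. Their program rests on GATA1 and its cofactor FOG1 (encoded by *Zfpm1*), on TAL1 bound to DNA with GATA1 through the bridging protein LMO2 and its partner LDB1, and on KLF1, NFE2 and the repressor GFI1B. Erythropoietin, the hormone that keeps red cell precursors alive, signals through the receptor encoded by *Epor*. *Csf2rb* encodes the shared beta chain of the receptors for IL-3, IL-5 and GM-CSF, and *Csf2rb2* a second beta chain that in mice serves IL-3 alone. *Tal1* and *Lmo2* are also transcribed in endothelial cells, and *Zfpm1* in the heart.

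As a check of the labels, *Nrg1* had 59 to 72 counts in mutant and 121 to 173 in WT samples. Total counts were 12430368 to 14223860 in mutant and 11852372 to 14360323 in WT samples. Across all genes, 739 of 14451 were higher and 506 lower in mutant ventricles at an adjusted p under 0.05. Adjusted p-values come from the quasi-likelihood test of edgeR, corrected over all tested genes by the Benjamini-Hochberg method, unless another test is named. Mutant replicate 1 stood apart from the other libraries. The chi-square per degree of freedom between its counts and those of the other mutant samples was 28.1 to 47.9, against 4.41 to 13.3 among the other mutant samples and 3.59 to 5.75 among WT samples. Without it, 1368 genes were higher and 1155 lower. Fits without that library were made for the 10 genes, globin and the gene lists.

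The promoters were searched for letters that such factors bind. Of the 10 genes, 7 had promoter windows in RefSeq (build GRCm38.p6), 8 windows in all since *Tal1* had 2, each from 250 bases before to 50 bases after a start. The GATA motif was searched on both strands with the spellings AGATAA and TGATAA, or with a last G in the spellings AGATAG and TGATAG. It was found in 5 of the 8 windows, those of *Klf1*, *Gfi1b*, *Epor* and *Csf2rb2* and 1 of *Tal1*, and in 29.8% of 32851 promoter windows of the same length genome-wide. The KLF motif CCNCNCCC was found in 6 of the 8 windows and in 49.5% of all windows, with no match for *Klf1* itself. The NFE2 motif TGAGTCA was in none of the 8 windows and in 5.2% of all windows. The E-box CANNTG, the letters bound by TAL1 and its partners, was in 6 of the 8 windows and in 72.3% of all windows, a share close to that of these genes. KLF matches can overlap one another. A match is a run of letters and not a measured binding site, and a missing match says only that the letters are not in the window. Whether a match bears on the level of a gene was not tested, and *Gata1* and *Zfpm1*, which rose too, had no GATA match. The *Tal1* window with a match is not shown. The windows of a regulator, a repressor and both kinds of receptor, chosen after seeing the data, are examples with 1 GATA match each, in capitals:
Klf1 (chr8:84901732-84902031, plus strand): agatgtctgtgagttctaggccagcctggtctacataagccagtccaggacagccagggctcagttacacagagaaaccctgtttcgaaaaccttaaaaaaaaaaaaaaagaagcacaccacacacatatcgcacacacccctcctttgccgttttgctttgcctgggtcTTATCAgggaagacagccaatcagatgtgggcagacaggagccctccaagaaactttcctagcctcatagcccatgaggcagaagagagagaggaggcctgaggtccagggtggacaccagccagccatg
Gfi1b (chr2:28621933-28622232, minus strand): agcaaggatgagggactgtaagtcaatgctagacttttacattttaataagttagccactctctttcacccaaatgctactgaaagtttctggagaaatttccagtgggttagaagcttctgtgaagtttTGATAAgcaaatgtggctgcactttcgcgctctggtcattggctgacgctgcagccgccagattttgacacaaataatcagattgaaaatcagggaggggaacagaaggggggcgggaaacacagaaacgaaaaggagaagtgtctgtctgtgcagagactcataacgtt
Epor (chr9:21963527-21963826, minus strand): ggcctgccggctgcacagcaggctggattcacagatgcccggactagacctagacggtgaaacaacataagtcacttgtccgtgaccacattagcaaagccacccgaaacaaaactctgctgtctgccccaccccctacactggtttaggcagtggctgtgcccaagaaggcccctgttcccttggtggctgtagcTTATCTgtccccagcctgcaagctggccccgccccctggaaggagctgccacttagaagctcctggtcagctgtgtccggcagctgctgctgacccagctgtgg
Csf2rb2 (chr15:78305672-78305971, minus strand): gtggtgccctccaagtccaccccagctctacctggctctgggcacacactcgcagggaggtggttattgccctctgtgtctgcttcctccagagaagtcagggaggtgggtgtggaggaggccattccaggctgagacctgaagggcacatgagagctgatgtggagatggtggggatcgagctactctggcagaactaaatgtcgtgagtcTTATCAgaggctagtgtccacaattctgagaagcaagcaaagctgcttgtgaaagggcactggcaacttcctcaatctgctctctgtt

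Counted from the start, the first base of the GATA match lay at position -38 in *Csf2rb2*, -54 in *Epor*, -80 in *Klf1* and -120 in *Gfi1b*. The *Gata1* window held no GATA match and 3 KLF matches, at -71, -55 and -34. The *Zfpm1* window held no GATA match and 4 KLF matches.

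The first question was whether these genes differed between mutant and WT ventricles. In mutant ventricles 9 of the 10 genes rose, with every mutant sample above every WT sample, and *Lmo2* did not pass the test. Over all genes tested, 5.11% rose and 9.52% had every mutant sample above every WT sample. The genes, however, were chosen with earlier results of these data known, so the count describes them and is no independent evidence. The median log2 fold change was 2.25 over the 10 genes and -0.0014 over all genes tested. In bulk tissue a larger number of cells of a type and more RNA per cell cannot be told apart. Globin transcripts, the yardstick of red cell RNA, took 6.26%, 1.93%, 3.8% and 3.9% of counts in mutant replicates 1 to 4 and 0.671% to 0.799% in WT. The difference in mean log2 globin share was 2.35 (two-sided exact permutation p = 0.0286, the smallest that 4 against 4 samples allow).

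**Figure D1:**
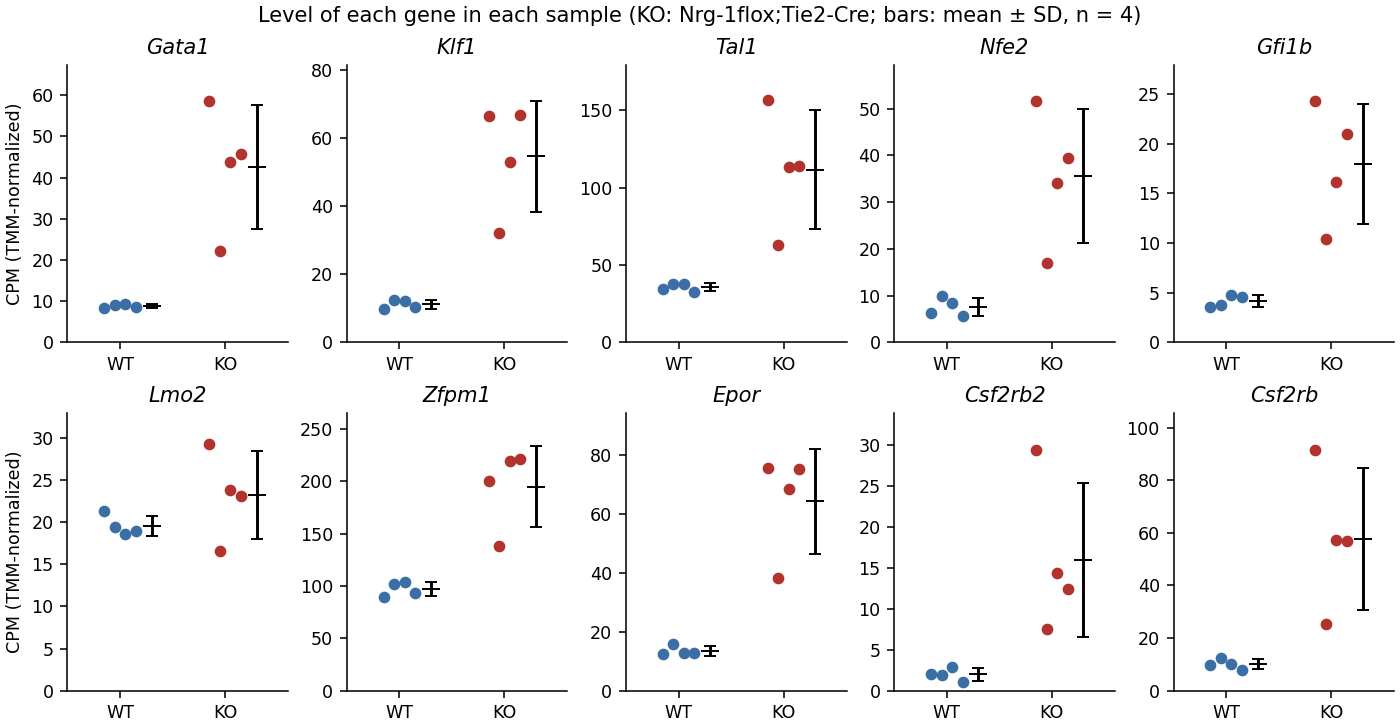
Level of each gene in CPM (TMM-normalized) on the y axis, in 4 WT and 4 mutant (KO) samples, with black bars for mean ± SD. Mutant points lie above all WT points in 9 panels, and in the *Lmo2* panel mutant replicate 2, at 16.6 CPM, lies below the WT points.

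Among the DNA-binding regulators, *Gata1* encodes the zinc finger factor that red cells cannot form without. In GRCm38 it lies at chrX:7959260-7978071 on the minus strand, with 6 exons in the transcript of longest coding sequence. Its level, in TMM-normalized counts scaled to the library total (CPM), was 58.7, 22.3, 43.7 and 45.7 CPM in mutant replicates 1 to 4, and 8.33, 9.10, 9.37 and 8.58 CPM in WT replicates 1 to 4. The lowest mutant sample, replicate 2, was thus still well above the WT samples, which lay close together. The log2 fold change was 2.26 (standard error 0.25, edgeR's adjusted p = 0.00177), a 4.81-fold rise.

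*Klf1* (chr8:84901928-84905291, plus strand, 3 exons) encodes the activator of the adult beta-globin gene and of many red cell genes. It was at 66.5, 32.1, 53.0 and 66.9 CPM in mutant and at 9.78, 12.3, 12.2 and 10.5 CPM in WT samples. Mutant replicates 1 and 4 were nearly level, unlike *Gata1*, where replicate 1 was the highest. *Klf1* rose by a log2 fold change of 2.28 (standard error 0.22, edgeR's adjusted p = 0.00125).

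*Tal1* encodes a basic helix-loop-helix factor needed to make the first blood cells. The gene has 5 exons at chr4:115056426-115071755, plus strand. It was at 157, 62.7, 113 and 114 CPM in mutant and at 34.7, 37.5, 37.9 and 32.7 CPM in WT samples. Its log2 fold change of 1.64 (standard error 0.22, edgeR's adjusted p = 0.00303) was the smallest of the 5 DNA-binding regulators.

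*Nfe2* encodes the blood-specific subunit of the NF-E2 dimer, which also acts in platelet formation. The gene has 3 exons at chr15:103248212-103258403, minus strand. Mutant samples had 51.6, 17.1, 34.0 and 39.6 CPM, and WT samples 6.26, 9.96, 8.38 and 5.61 CPM. WT samples varied more for *Nfe2* than for the other regulators, by 1.77 times from lowest to highest, and did not reach the mutant samples. The log2 fold change was 2.23 (standard error 0.32, edgeR's adjusted p = 0.00342).

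*Gfi1b* (chr2:28609450-28621982, minus strand, 7 exons) encodes a repressor of red cell and platelet precursors. It had the lowest level of the 5 DNA-binding regulators, at 24.3, 10.4, 16.1 and 21.0 CPM in mutant and 3.59, 3.73, 4.77 and 4.60 CPM in WT samples. These WT values rest on 47 to 68 counts per sample. The log2 fold change was 2.10 (standard error 0.25, edgeR's adjusted p = 0.00185).

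The cofactors, which do not bind these sites by themselves, moved least. *Zfpm1* (chr8:122282141-122337251, plus strand, 10 exons) was the gene with the highest level per length of transcript in WT. It was at 200, 139, 219 and 222 CPM in mutant and at 89.8, 102, 104 and 93.3 CPM in WT samples. The groups did not overlap, and mutant replicate 1 was below replicates 3 and 4. *Zfpm1* rose 2.01-fold, by a log2 fold change of 1.01 (standard error 0.14, edgeR's adjusted p = 0.00282).

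*Lmo2* (chr2:103957986-103981878, plus strand, 3 exons) was at 29.3, 16.6, 23.9 and 23.2 CPM in mutant and at 21.3, 19.5, 18.6 and 18.9 CPM in WT samples. Mutant replicate 2 was below all WT samples and the other mutant samples were above them, so the groups overlapped. The log2 fold change was 0.25 (95% interval -0.09 to 0.58, edgeR's adjusted p = 0.343). Without mutant replicate 1 it was 0.11 (edgeR's adjusted p = 0.564), and without mutant replicate 2 it was 0.39 and passed (edgeR's adjusted p = 0.0482). It passed in none of the 7 other fits that each left out 1 replicate, and in none of the 7 alternative fits on all samples.

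All receptor genes rose. *Epor* (chr9:21958897-21963506, minus strand, 8 exons) had the smallest p of the 10 genes and ranked 8 among all genes tested by p. It was at 75.7, 38.2, 68.6 and 75.3 CPM in mutant and at 12.3, 15.8, 12.7 and 12.9 CPM in WT samples. The rise was 4.78-fold, a log2 fold change of 2.26 (standard error 0.21, edgeR's adjusted p = 0.00119), close to those of *Gata1* and *Klf1*.

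*Csf2rb* was at 91.7, 25.5, 57.3 and 56.8 CPM in mutant and at 9.62, 12.3, 10.3 and 7.91 CPM in WT samples. *Csf2rb2* was at 29.3, 7.53, 14.3 and 12.4 CPM in mutant and at 2.06, 1.93, 2.88 and 1.01 CPM in WT samples, the latter from 15 to 35 counts. Mutant replicate 1 was the highest sample for both genes, and for *Csf2rb2* it was 2.57 times the mean of the other mutant samples. The log2 fold changes were 2.52 for *Csf2rb* (standard error 0.34, edgeR's adjusted p = 0.00274) and 3.02 for *Csf2rb2* (standard error 0.44, edgeR's adjusted p = 0.00369). By size of log2 fold change *Csf2rb2* ranked 5 and *Csf2rb* 21 among the 14451 genes tested. Without mutant replicate 1 both still passed.

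**Figure D2:**
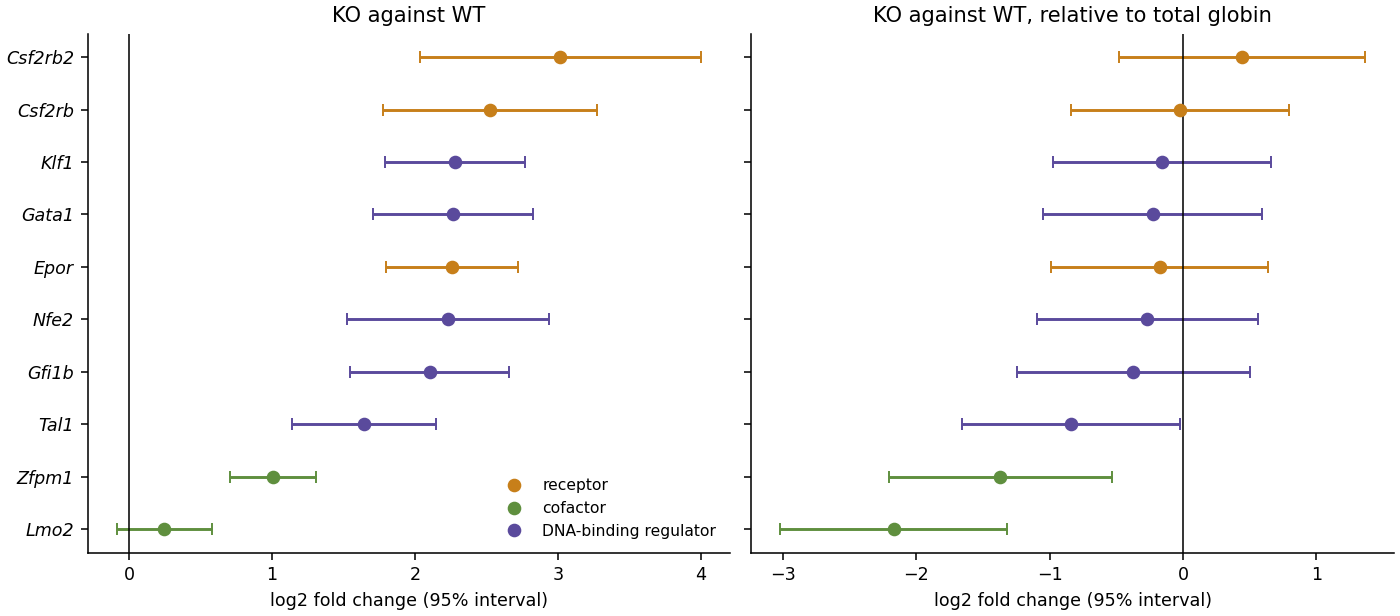
Log2 fold change of each gene on the x axis with its 95% interval, mutant against WT on the left and relative to total globin on the right, coloured by role. On the left the receptor *Csf2rb2* is the farthest to the right at 3.02 and the cofactors *Zfpm1* and *Lmo2* the lowest at 1.01 and 0.25. On the right the intervals of *Tal1*, *Zfpm1* and *Lmo2* lie below 0.

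The receptor pair needs a caution, because the genes are near-identical neighbours on chromosome 15. *Csf2rb2* has 14 exons at chr15:78282507-78305721, minus strand, and *Csf2rb* has 15 at chr15:78325752-78353847, plus strand. Their coding sequences were identical at 95.2% of 2628 aligned bases, and of the read-length windows of 60 bases in the longest coding transcripts, 14.6% for *Csf2rb* and 15.1% for *Csf2rb2* occurred in the other gene. For the other 8 genes no such window occurred in a transcript of another gene. The longest shared run of coding sequence was 242 bases. Its first 60 bases, coding bases 2083 to 2142 in both genes, lie in exon 15 of *Csf2rb* (chr15:78348577-78348636, plus strand) and exon 14 of *Csf2rb2* (chr15:78284812-78284871, minus strand), and a read from there fits either gene:
Csf2rb and Csf2rb2: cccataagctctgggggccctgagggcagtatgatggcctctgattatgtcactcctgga

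All 8 expected counts of *Csf2rb* and of *Csf2rb2* had a fractional part, whereas those of the other 8 genes were whole numbers in every sample. These were also the only genes of the 10 with another annotated gene in their exons on the same strand, *Mir7676-2* in *Csf2rb* and *Mir7676-1* in *Csf2rb2* (62 bases each), and the source of the fractions was not tested. The count of the pair together does not depend on how reads were shared between these 2 genes. That sum was at 121, 33.0, 71.6 and 69.2 CPM in mutant and at 11.7, 14.3, 13.1 and 8.92 CPM in WT samples. It rose by a log2 fold change of 2.62 (standard error 0.34, edgeR's adjusted p = 0.00267, a sum chosen after seeing the data). *Csf2rb2* took 18.0% to 24.2% of the pair's counts in mutant and 11.4% to 21.9% in WT samples. These ranges overlap. In fold over the WT mean, *Csf2rb2* was above *Csf2rb* in every mutant sample, at 14.9, 3.82, 7.26 and 6.31 against 9.14, 2.54, 5.71 and 5.66. These folds depend on how reads were shared and on the low WT counts of *Csf2rb2*, and the difference between the rises was not tested.

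Levels can be compared between genes only per length. Dividing CPM by the length of the longest coding transcript in kb gave, for WT samples, 28.6 ± 1.95 (SD, n = 4) for *Zfpm1* and 11.5 ± 0.713 for *Lmo2*, each above the next gene in all samples. *Tal1* at 8.47 ± 0.583, *Epor* at 7.63 ± 0.916 and *Klf1* at 7.32 ± 0.835 followed, and neighbours among these 3 overlapped. *Nfe2* at 4.71 ± 1.24 and *Gata1* at 4.65 ± 0.25 overlapped too, as did *Gfi1b* at 2.29 ± 0.328 and *Csf2rb* at 2.05 ± 0.372. *Csf2rb2* was lowest at 0.416 ± 0.161 CPM per kb. In mutant samples the order of mean CPM per kb differed, with *Zfpm1* at 57.5 ± 11.4, *Epor* at 36.6 ± 10.1, *Klf1* at 35.7 ± 10.7 and *Lmo2*, second in WT, at 13.6 ± 3.06. The length is that of the annotation and not of the transcripts made in these cells.

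The next question was whether regulators and receptors rose in step with each other and with globin, sample by sample. Mutant replicate 2 had the lowest level of the 4 mutant samples for all 10 genes and for total globin. Replicate 1 was the highest for 8 genes and replicate 4 for the other 2, *Klf1* and *Zfpm1*. The full order of total globin among the 4 mutant samples, with replicate 1 above 4, 3 and 2, was found for 5 of the 10 genes. No correlation with globin is given, because mutant and WT samples formed separate clusters of 4. Mutant replicate 2 was also the lowest mutant sample for the sum of 4 Y-linked genes. That sum was 20.6 to 113 CPM in mutant and 21.9 to 95.8 CPM in WT samples, so sex may differ between samples. With Y-linked genes as a covariate, 9 of the 10 genes were still called, with *Gata1* at 1.99 and *Lmo2* at 0.11. The part of sex in the dip of replicate 2 was not tested.

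In fold over the WT mean, total globin was at 9.53, 2.73, 5.52 and 5.67 in mutant replicates 1 to 4. The median over the 7 regulators and cofactors was 5.84, 2.26, 3.86 and 5.04, and the median over the 3 receptors was 9.14, 2.84, 5.71 and 5.66. The receptor median was below globin in replicates 1 and 4 and above it in replicates 2 and 3. The regulator median was below globin in every mutant sample. *Gata1*, *Tal1*, *Nfe2*, *Gfi1b*, *Lmo2* and *Zfpm1* were each below globin in all 4 mutant samples, while *Klf1* was above it in replicates 2 and 4 and *Epor* in replicate 2. The gap between the regulator median and globin was widest in mutant replicate 1. That library had 2.05 times as much globin as the mean of the other mutant samples, against 2.57 times for *Csf2rb2*, 1.97 times for *Csf2rb*, 1.58 times for *Gata1*, 1.31 times for *Klf1*, 1.25 times for *Epor* and 1.03 times for *Zfpm1*.

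**Figure D3:**
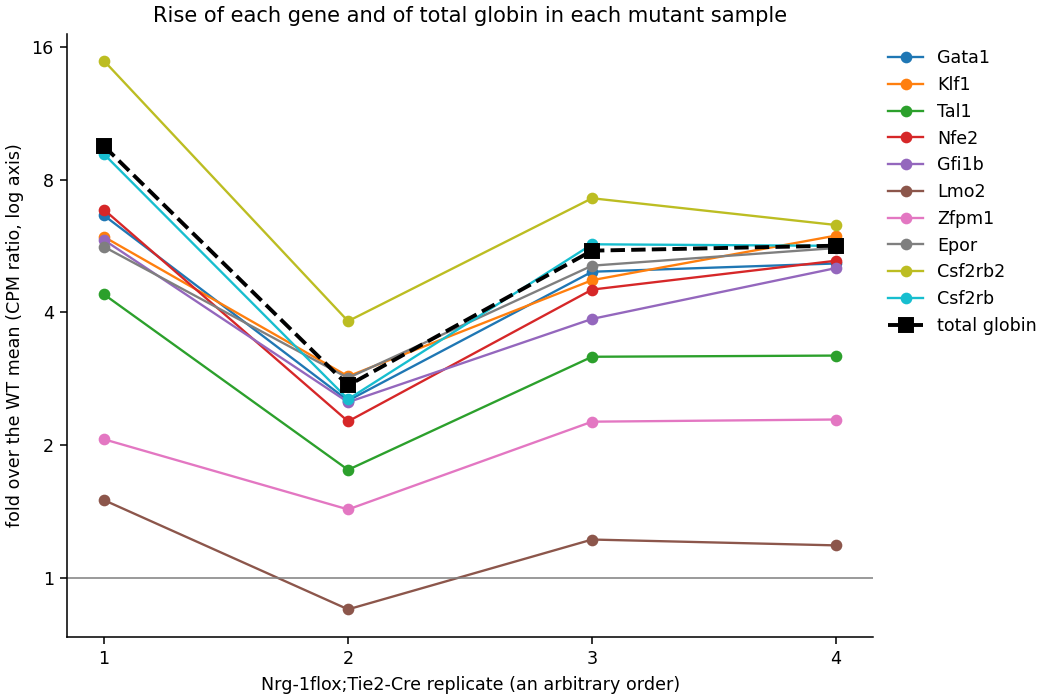
Fold over the WT mean (ratio of CPM, log axis) of each gene and of total globin (dashed) in the 4 mutant samples. Lines only join the values of a gene, since replicates have no order. All lines dip in replicate 2, where total globin is at 2.73, and in replicate 1 *Csf2rb2*, at 14.9, is the only gene above globin.

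Scaling each sample to its own globin counts asked whether a gene's fold differed from that of globin. On this scale 3 of the 10 genes were called lower in mutant samples and none higher, whereas 98.7% of all genes tested were called lower, since most genes do not follow globin. The genes called were *Lmo2* (log2 fold change relative to globin -2.17, 95% interval -3.02 to -1.32, edgeR's adjusted p = 9.07e-07), *Zfpm1* (-1.37, 95% interval -2.21 to -0.53, edgeR's adjusted p = 0.0014) and *Tal1* (-0.84, 95% interval -1.66 to -0.02, edgeR's adjusted p = 0.0452). The call on *Tal1* was lost in 6 of the 8 fits that each left out 1 replicate, where its largest adjusted p was 0.0993 and its value stayed between -0.91 and -0.76. It held only without mutant replicate 1 or mutant replicate 2. The groups themselves did not overlap. *Tal1* had 234, 326, 291 and 285 counts per 100000 globin counts in mutant and 527, 477, 525 and 502 in WT samples.

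*Zfpm1* had 298 to 721 counts per 100000 globin counts in mutant and 1291 to 1437 in WT samples. *Lmo2* had 43.7 to 86.2 in mutant and 247 to 324 in WT samples. For both, mutant replicate 1 was the lowest and mutant replicate 2 the highest, the reverse of their globin shares.

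The other 7 genes were not called relative to globin, and their mutant and WT ratios overlapped. *Csf2rb* was the closest to globin, with 137, 133, 147 and 142 counts per 100000 globin counts in mutant and 146, 156, 142 and 121 in WT samples. Its ratio varied by no more than these ranges while its level varied 3.6-fold among mutant samples. Relative to globin its log2 fold change was -0.02 (95% interval -0.84 to 0.8). For *Gata1* the ratios were 87.4, 116, 112 and 114 in mutant and 127, 116, 130 and 132 in WT samples, a log2 fold change of -0.23 (95% interval -1.05 to 0.59). *Epor* had 113, 198, 176 and 189 in mutant and 187, 201, 177 and 198 in WT samples, so replicate 1 alone lay outside the range of the rest. *Klf1* showed the same, with 99.0 in mutant replicate 1 against 136 to 170 in all other samples. Relative to globin, *Klf1* was at -0.16 and *Epor* at -0.17, and without mutant replicate 1 at -0.019 and -0.023.

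The intervals for *Klf1* (-0.98 to 0.66), *Epor* (-0.99 to 0.64), *Nfe2* (-1.1 to 0.56), *Gfi1b* (-1.24 to 0.5) and *Csf2rb2* (-0.48 to 1.36) allow a fold up to about these bounds above or below that of globin on the log2 scale, so equal folds were not shown. These intervals use a spread pooled with genes that do not follow globin. A two-sided exact permutation test of each ratio on its own, chosen after seeing the data and not adjusted, gave p = 0.0286 for *Tal1*, *Zfpm1* and *Lmo2*, p = 0.0571 for *Gata1* and at least 0.114 for the others.

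**Figure D4:**
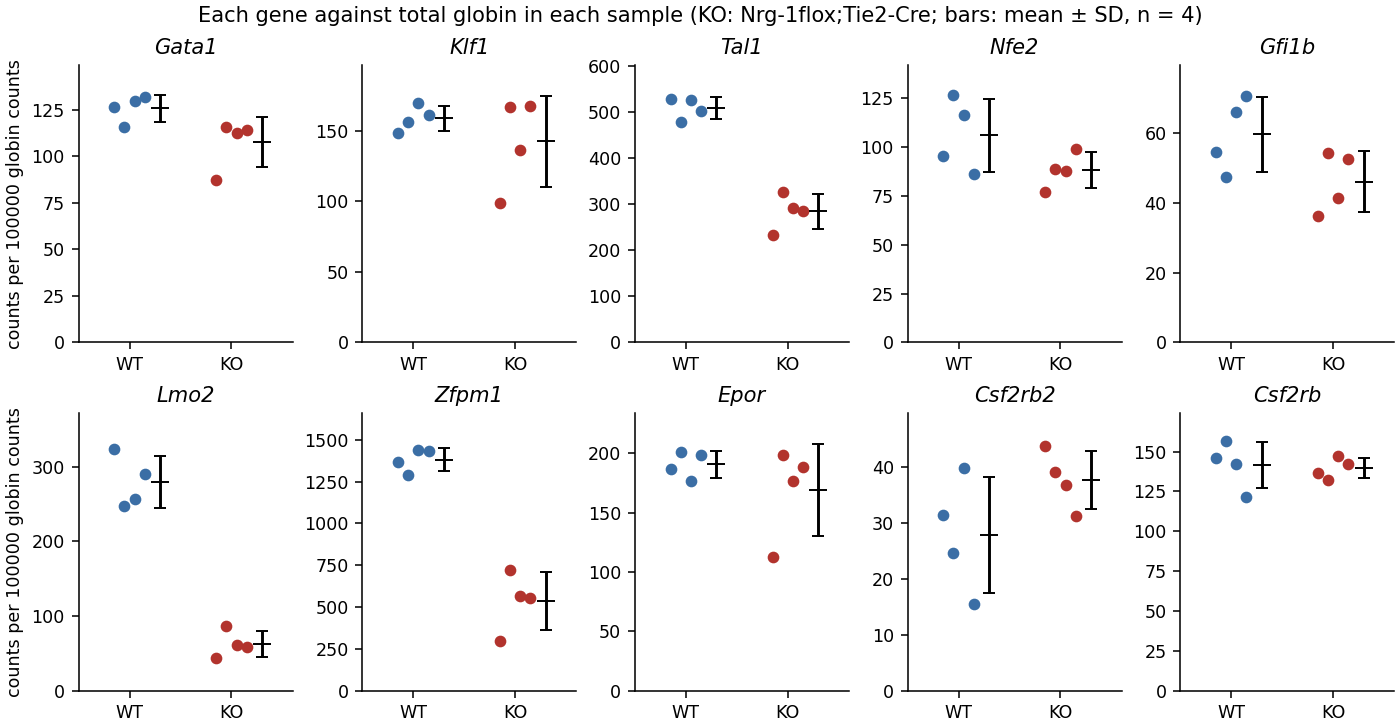
Counts of each gene per 100000 globin counts on the y axis, in 4 WT and 4 mutant (KO) samples, with black bars for mean ± SD. *Csf2rb* is level between genotypes (133 to 147 in mutant, 121 to 156 in WT), while *Tal1*, *Zfpm1* and *Lmo2* are lower in all mutant samples.

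Scaled to *Gata1* in place of globin, 2 of the 9 other genes were called lower (98.4% of all genes tested) and none higher (0.0138% of all genes tested). *Lmo2* was at -1.95 (95% interval -2.66 to -1.25, edgeR's adjusted p = 8.55e-08) and *Zfpm1* at -1.17 (95% interval -1.86 to -0.48, edgeR's adjusted p = 9.83e-04). *Tal1* was at -0.61 (95% interval -1.29 to 0.07, edgeR's adjusted p = 0.078). Without mutant replicate 2 it passed (edgeR's adjusted p = 7.73e-05), and its ratio to *Gata1* did not overlap between genotypes. *Csf2rb2* was at 0.70 (95% interval -0.1 to 1.51, edgeR's adjusted p = 0.0858) and passed without mutant replicate 2 only (edgeR's adjusted p = 0.0364). The smallest differences from *Gata1* were those of *Epor* (0.03, 95% interval -0.65 to 0.71), *Nfe2* (-0.04, 95% interval -0.74 to 0.65) and *Klf1* (0.05, 95% interval -0.63 to 0.74).

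Likeness between profiles was described by the root mean square difference, over the 8 samples, of log2 CPM (prior count 2) taken relative to the WT mean, which reflects the shared genotype difference and has no test. Among the 10 genes, *Klf1* and *Epor* were the most alike at 0.10, followed by *Gata1* with *Klf1* at 0.13 and *Gata1* with *Epor* at 0.14. The least alike were *Lmo2* and *Csf2rb2* at 1.9. Of all other genes tested, *Trim10* was nearest to *Epor* (0.0592), to *Klf1* (0.105) and to *Gata1* (0.109). Other near profiles were *Acp5* for *Gata1* (0.11), *Epb42* (0.141) and *Ermap* (0.158) for *Klf1*, and *Epb42* for *Epor* (0.0921). *Csf2rb2* had no near match, and its nearest were the globin genes *Hbq1b* (0.388) and *Hba-a2* (0.411) and then *Pdzk1ip1* (0.432). Its WT levels rest on 15 to 35 counts and varied 2.84-fold, and such a spread can add to its distance from any gene.

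Of 24 genes listed as partners of these regulators, 23 were tested, 6 rose, none fell and 17 did not pass, where 5.11% of all genes rose. The median log2 fold change was 0.31, against -0.0014 over all genes. Without mutant replicate 1, where 1368 of all 14630 genes rose, 9 of the 23 did. Without any other single replicate 4 to 7 did, and 335 to 910 over all genes. The largest rises were in *Ikzf1*, an Ikaros family factor (2.19, edgeR's adjusted p = 0.00274), *E2f2*, a cell cycle factor (1.27, edgeR's adjusted p = 0.00906) and *Lyl1*, a relative of *Tal1* (1.18, edgeR's adjusted p = 0.00369). *Ldb1*, whose protein joins LMO2 to other factors, rose by 0.55 (edgeR's adjusted p = 0.00224), and *Mafk* (0.54) and *Zbtb7a* (0.46) made up the 6. *Runx1*, needed for definitive blood, was at 1.53 with 30 to 96 counts in mutant and 12 to 28 in WT samples (edgeR's adjusted p = 0.0573). *Gata2* was at -0.22, *Fli1* at -0.01 and *Myb* at 0.73, and none of these passed.

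Downstream of the erythropoietin receptor, 1 of 15 tested genes rose and none fell, a share near the 5.11% of all genes, with a median log2 fold change of 0.25. Without mutant replicate 2, where 910 of all 14548 genes rose, 6 of the 15 did, and without any other single replicate 1. The gene that rose was *Pim1*, a kinase gene induced by STAT5 (1.54, edgeR's adjusted p = 0.0115), at 111 to 339 CPM in mutant and 64.3 to 70.2 CPM in WT samples. The receptor's kinase *Jak2* was at 0.35 and its targets *Stat5a* and *Stat5b* at 0.59 and 0.31 without passing (the smallest of edgeR's adjusted p-values was 0.0787), and all 3 passed without mutant replicate 2. *Epo* had 0 or 1 count in each sample and was not tested. Of other cytokine receptors, 9 of 13 were tested, *Csf1r*, the receptor of macrophages, rose (1.08, edgeR's adjusted p = 0.00657) and *Tek*, which encodes the endothelial receptor Tie2, fell by 0.34 (edgeR's adjusted p = 0.031), with a median over the 9 genes of 0.18. Without mutant replicate 1, 2 of the 9 rose, 3 fell and the median was -0.19. None fell without mutant replicate 4 or without any 1 of the WT replicates. Over all genes, 739 of 14451 rose and 506 fell, and without mutant replicate 1, 1368 of 14630 rose and 1155 fell. The alpha chains that pair with the shared beta chain were at 0.18 for *Il3ra* (34 to 81 counts in mutant, 50 to 74 in WT samples) and at 0.27 for *Csf2ra*, which passed without mutant replicate 1 only (0.38, edgeR's adjusted p = 0.0383), and *Il5ra* had at most 3 counts in a sample. *Kit*, the stem cell factor receptor, was at 0.19 and did not pass.

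Beyond the regulators, all 8 globin genes tested rose, with a median log2 fold change of 2.51. *Hbb-bt* lost its call in the 5 fits without mutant replicate 4 or a WT replicate, where the other 7 rose. The embryonic genes *Hba-x*, *Hbb-bh1* and *Hbb-y* rose by 2.69, 2.50 and 2.45, *Hba-a1*, *Hba-a2*, *Hbq1b* and *Hbb-bt* by 2.52, 2.77, 2.80 and 2.20, and *Hbb-bs*, an adult beta-globin gene, by 1.49. Reads of *Hba-a1* and *Hba-a2*, and of *Hbb-bs* and *Hbb-bt*, could be shared between near-identical copies. All 22 tested genes of the red cell effector list (heme synthesis, iron uptake and membrane) rose too, with a median of 2.03. The largest were *Rhag* (2.52), *Hemgn* (2.49) and *Alas2*, the first enzyme of red cell heme synthesis (2.44). Among the 10 genes, *Lmo2* at 0.25 was below the range of these effector genes, which went from 0.75 for the transferrin receptor *Tfrc* to 2.52 for *Rhag*, *Csf2rb* at 2.52 was level with its top, and *Csf2rb2* at 3.02 was above it.

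**Figure D5:**
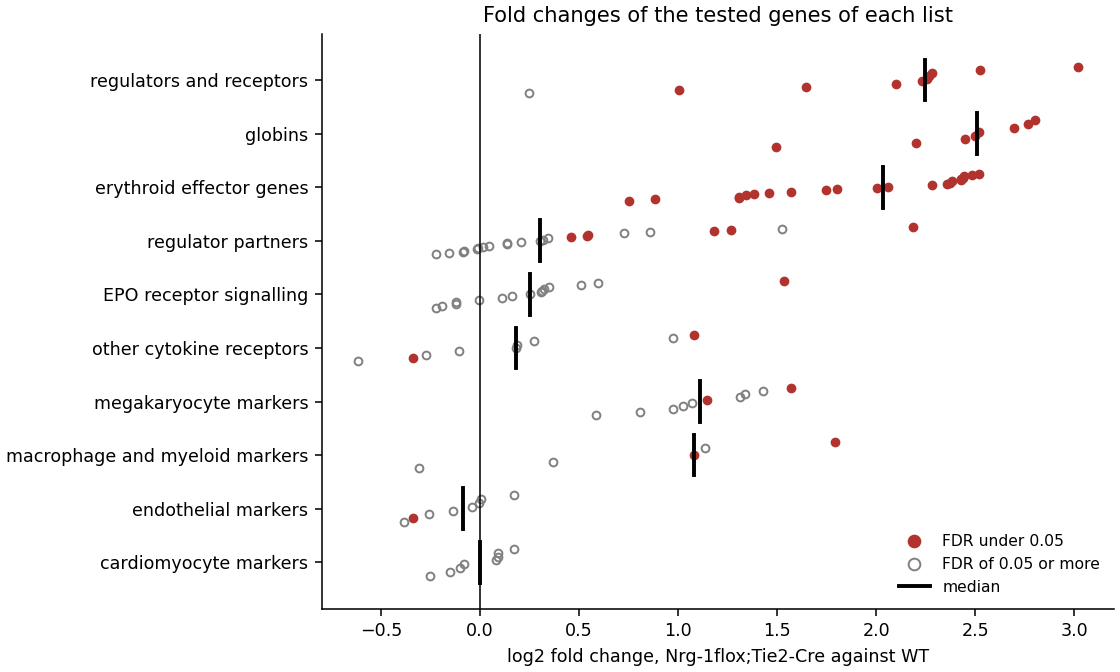
Log2 fold change, mutant against WT, of each tested gene (points) and the median (black line) of each gene list, with filled points for an adjusted p under 0.05. Globin and red cell effector genes are all filled and right of 0, and the cardiomyocyte markers are all open with a median of -0.00034.

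Markers of other cells that the dissection could hold are set beside these results. For comparison, 5.11% of all genes tested rose, and 506 of 14451 fell. Megakaryocyte markers, of a lineage that also uses *Gata1*, *Nfe2*, *Gfi1b* and *Zfpm1*, summed to 119 to 326 CPM in mutant and 84.7 to 116 CPM in WT samples, and 2 of 10 rose (*Gp9* by 1.57 and *Itga2b* by 1.15), none fell and the median was 1.11. The highest sum was that of mutant replicate 1, and the other mutant samples had 119 to 137 CPM. Without that library 3 of 10 rose and the median was 0.59, with *Gp9* at 1.15 and *Itga2b* at 0.69. None of the 10 passed in the 6 fits without mutant replicate 3 or 4 or without a WT replicate. Macrophage and myeloid markers, of cells that use *Csf2rb* and *Csf2rb2*, summed to 28.0 to 39.4 CPM in mutant and 19.0 to 28.3 CPM in WT samples, and 2 of the 5 tested rose (*Mpo* by 1.79 and *Csf1r* by 1.08), while 1 rose in the 5 fits without mutant replicate 3 or 4 or WT replicate 2, 3 or 4, and 3 rose without mutant replicate 2. The defining markers *Ptprc* and *Itgam* had at most 14 and 10 counts in a sample, and *Adgre1* had 0 counts in all 4 WT and at most 5 in mutant samples. Endothelial markers summed to 646 to 772 CPM in mutant and 755 to 814 CPM in WT samples, and 1 of 8 fell (*Tek*) with a median of -0.09. Without mutant replicate 1, 3 of the 8 fell, and none fell in the 6 fits without mutant replicate 3 or 4 or without a WT replicate. The calls over all genes moved too. Of 14630 genes, 1368 were higher and 1155 lower without mutant replicate 1. In those 6 fits, 335 to 487 were higher and 174 to 297 lower. Without mutant replicate 2, 910 of 14548 were higher and 476 lower. The 8 cardiomyocyte markers, which define the labelled tissue, summed to 31251 to 33834 CPM in mutant and 32014 to 34328 CPM in WT samples, and none passed the test, while *Actc1* rose by 0.16 without mutant replicate 1 and 1 of the 8 fell without mutant replicate 2. The part of these cells in the levels of the 10 genes was not tested.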

How the data were processed

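Expected counts of each gene were deposited by the authors. The submitters' processing notes name cutadapt, RSEM 1.3.1 and build GRCm38. The values are not scaled for depth or gene length. The aligner and the use of strand are not given in the sources used here. Expected counts were rounded to whole numbers, and 53274 of 53465 gene IDs had a symbol. Genes were tested with edgeR 4.0.16 in R 4.3.3 (filterByExpr, TMM, quasi-likelihood test, Benjamini-Hochberg adjustment over 14451 genes, threshold 0.05). Standard errors are the log2 fold change over the root of F. The same test was run with each sample's globin or *Gata1* count as the offset. There nearly all genes are called, so adjusted p-values are close to unadjusted ones. CPM uses TMM library sizes, and a prior count of 2 was used for likeness. The tests were checked on simulated data, in which the reference rose by the same factor in every mutant sample. In the real data, total globin differed 3.49-fold between the lowest and highest mutant samples. That check therefore does not cover such a spread of the reference.

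The genes and lists were chosen with earlier results of these data known. The text names the 10 genes, *Nrg1*, tested globin genes, set partners, the 3 largest calls of each list and the 3 nearest profiles of 4 genes, except 2 genes that are not reported here. Genes that complete a count (*Mafk*, *Zbtb7a*), *Tfrc*, and the myeloid markers at low counts were named after their values were seen. The alternatives were DESeq2 1.42.0, other scalings, no filter, a replicate block, a Y-linked covariate and each replicate left out. Sequences came from RefSeq (GRCm38.p6) and GENCODE M21 transcripts (GRCm38), aligned with MAFFT 7.526.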

Additional observations from a re-analysis of the deposited data

Results flagged for a closer look

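Within the groups of 4 samples, the ratio of *Gata1* to total globin was set apart by 1 sample in mutant ventricles. Mutant replicate 1 had 87.4 *Gata1* counts per 100000 globin counts and the others 112 to 116, so its gap to the nearest sample was 0.877 of the group's range, above Dixon's 95% critical value. It was the only such group among 42 tested, where chance gives about 2.1.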

How the results depend on the processing

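Against WT, the number of the 10 genes called was 9 in the main result and in all 7 other fits on all samples, and from 9 to 10 over the 8 fits that each left out a replicate. With *Csf2rb* and *Csf2rb2* summed it was 8 of 9 rows. Relative to globin the number was 3, and from 2 to 3 elsewhere. Relative to *Gata1* it was 2, from 2 to 3 in the other fits on all samples, and from 2 to 4 with a replicate left out, the 4 without mutant replicate 2. *Tal1* relative to globin lost its call without the filter (adjusted p = 0.0632 from edgeR) and with the embryonic globins only (adjusted p = 0.0522 from edgeR). *Tal1* relative to *Gata1* was called with DESeq2 (adjusted p = 0.00788) and with *Klf1* as the reference gene (adjusted p = 0.0334 from edgeR).

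Some values near 0 changed sign without a call. *Csf2rb* relative to globin was 0.0033 without mutant replicate 2 and 0.031 without WT replicate 2, in a range of -0.088 to 0.031 over the fits without a replicate. Relative to *Gata1*, *Epor* was -0.021 with *Klf1* as the reference gene, -0.018 without mutant replicate 2 and -0.018 without WT replicate 3, *Klf1* was -0.0042 without mutant replicate 4, and *Nfe2* was 0.10 without WT replicate 2. Over the fits without a replicate these values ranged up to 0.11 for *Epor* and 0.12 for *Klf1*, and from -0.15 for *Nfe2*. The cause was not tested.

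The labels name no pairing of the replicate numbers, and same-numbered samples deviated with correlations across genes of -0.091 to 0.019. With the replicate number as a block, 9 of the 10 genes were called against WT, 2 relative to globin (*Tal1* at -0.85, adjusted p = 0.0974 from edgeR) and 2 relative to *Gata1*. Over all genes 398 were then higher and 218 lower. The blocked globin difference was 2.35, with an exact sign-flip p of 0.125, the smallest that 4 pairs allow. Without a replicate the difference in globin share was 2.09 to 2.65. Among genes of the lists, refitted without each replicate after seeing the data, *Mafk* and *Tek* lost their calls in 6 of 8 such fits and *Zbtb7a*, *Mpo* and *Hbb-bt* in 5, and *Runx1* passed without mutant replicate 2 (adjusted p = 0.0247 from edgeR). Low counts limit *Csf2rb2* and *Gfi1b* in WT.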
